A study of Drosophila melanogaster with 2 samples.

Results

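The genes described here are 10 fly genes that encode insulator and architectural proteins: CTCF, BEAF-32, su(Hw), Cp190, mod(mdg4), Chro, pita, ZIPIC, M1BP and Dref. They were taken by symbol from the Ensembl annotation, and each symbol matched exactly 1 of the 13968 protein-coding genes on the chromosome arms. A region was assigned to a gene when its summit lay in the gene body or within 2 kb on either side, a span called the locus below.

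Occupancy of the zinc-finger protein disco-r was measured by chromatin immunoprecipitation with sequencing in whole Drosophila melanogaster embryos, 0 to 24 h old and of both sexes. All embryos came from 1 transgenic line, disco-r-GFP, in which the protein carries eGFP, and chromatin was recovered with an antibody against GFP. One label gives disco, the paralog, as the tagged gene instead. The 2 biological replicates, numbered 2 and 3, form the only group, so no conditions could be compared, and no promoter or cell type driving the transgene is given in the labels.

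Insulator proteins bind DNA elements that separate neighbouring regulatory domains and that lie at many boundaries of topological domains. In flies, sequence-specific zinc-finger proteins such as CTCF, su(Hw), Pita and ZIPIC, and the BED-finger proteins BEAF-32 and DREF, recognise the DNA. Cofactors with a BTB domain, CP190 and Mod(mdg4), and the chromodomain protein Chromator join them there. BEAF-32, DREF and M1BP are known from promoters of genes that are active in most cells.

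Regions were deposited as a list of 29347 candidates from both replicates pooled and as lists of 30000 candidates for each replicate. A further list holds 2334 regions kept for reproducible ranks between replicates (irreproducible discovery rate, IDR), called IDR peaks below. The pooled list is labelled as peaks and background used as input for IDR. A candidate, above all a weak one, is therefore not by itself a region of enriched DNA. Each region has a signal, the peak caller's own value with no stated scale, which can only be compared within a list. Where signals of the 2 replicate lists are set side by side below, a difference in scale between the lists is not removed. All 2334 IDR peaks were also the 2334 strongest pooled candidates, with signals from 72.5 to 1206. The number of reads is unknown, so no counting error can be given, and the spread between the 2 replicates is the only error at hand.

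Of the 10 genes, 6 held an IDR peak: Chro, Cp190, mod(mdg4), Dref, BEAF-32 and CTCF. Each of the 6 held exactly 1. Over all protein-coding genes the share was 22.2%, and it was 25.1% among the 7931 genes whose bodies were no shorter than ZIPIC (1631 bp) and no longer than mod(mdg4) (26556 bp). The strongest pooled signal per locus had a median of 94.3 over the 10 genes (quartiles 64.9 and 172) and of 43.8 over the 11296 protein-coding genes with a candidate (quartiles 29.9 and 77.4). These signals were not matched for gene length. The median body was 3635 bp for the 10 genes and 2164 bp for all protein-coding genes. The 10 genes were chosen with earlier results of these data known, so no p-value is attached to these shares.

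**Figure D1:**
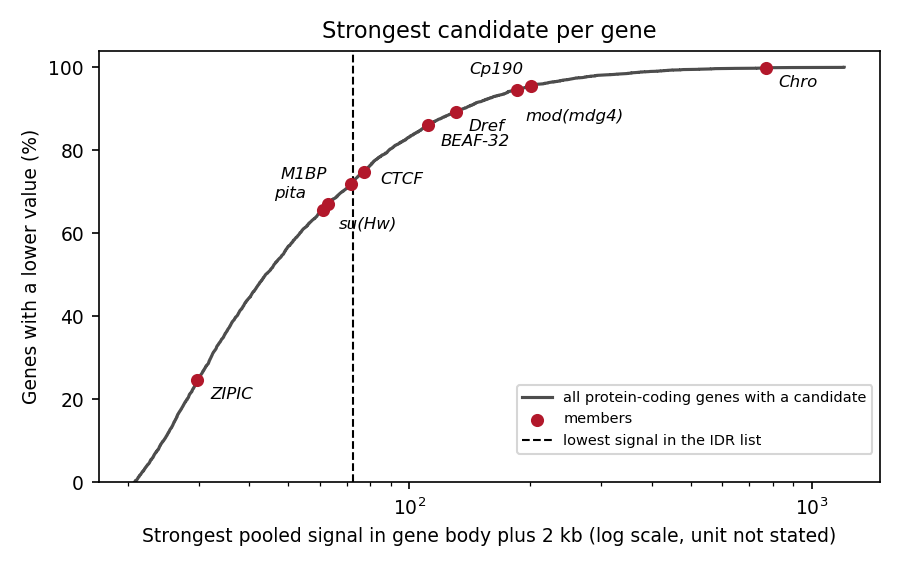
The curve gives, for protein-coding genes with a pooled candidate, the percentage of genes (vertical axis) whose strongest signal in the gene body plus 2 kb lies below the value on the horizontal log axis; points are the 10 members and the dashed line is the lowest IDR signal, 72.5. Chro stands at 769.8, ZIPIC at 29.7, and M1BP at 71.6 lies just left of the line.

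The 10 genes held 42 pooled candidates, 17 of them within 500 bp of an own transcription start site (TSS). Every member had at least 1 such promoter candidate, as did 7024 of all protein-coding genes (50.3%). At 5 members a promoter candidate was an IDR peak, where the share was 11.5% over all protein-coding genes and 22.8% over those with a promoter candidate. The 17 promoter candidates had a median signal of 60.8, and the 15 candidates with a summit in a coding exon, some of them in neighbouring genes, had one of 29.3. The median of the whole pooled list was 28.8. Of the 25 candidates away from an own start site, 12 lay within 500 bp of the TSS of another gene and 1, that of mod(mdg4), was an IDR peak. Replicate 2 listed 51 candidates at the 10 genes and replicate 3 listed 34.

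**Figure D2:**
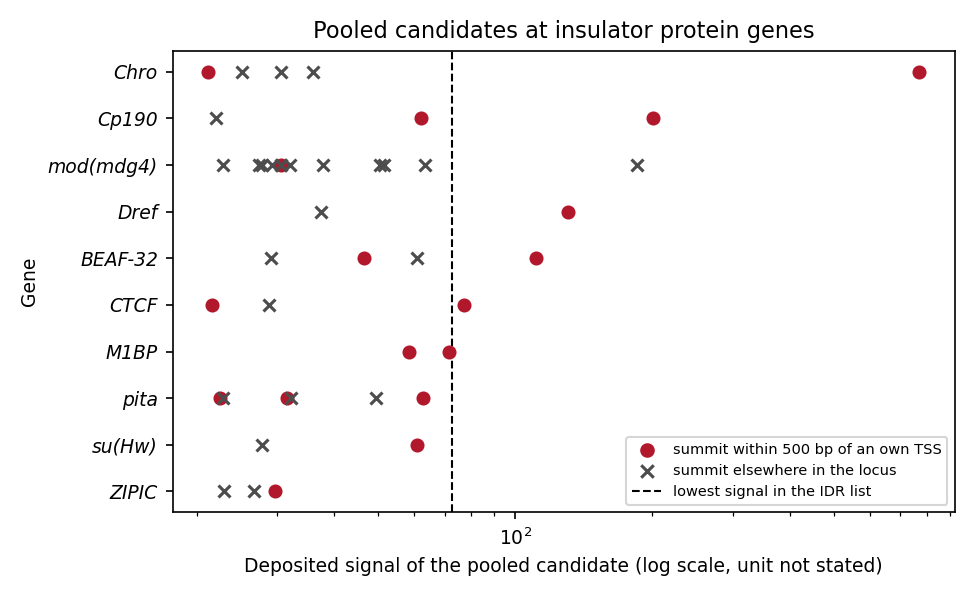
Each mark is 1 of the 42 pooled candidates, placed by its deposited signal (horizontal log axis) in the row of its gene; circles have their summit within 500 bp of an own TSS, crosses elsewhere, and the dashed line is the lowest IDR signal, 72.5. In 9 of the 10 rows the rightmost mark is a circle, and in the row of mod(mdg4) it is a cross, at 185.

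Among the cofactors, Chro had by far the strongest region. Chro encodes Chromator, which occupies the interbands of polytene chromosomes. Its peak (dm6, chr3L:22878741-22879077) had a pooled signal of 769.8 and was 7th of the pooled list, and its signal was 393 in replicate 2, rank 7, and 376 in replicate 3, rank 13. The summits of the replicates lay 16 bp apart, and 99.9% of genes with a candidate had a lower strongest signal. The summit fell in the 5′ UTR of Chro, 90 bp downstream of a start site of Chro and 195 bp from that of Ssl1, a subunit gene of the transcription factor TFIIH on the other strand. The other 4 candidates of the locus had signals of 36.0 or less. The start sites of Chro and Ssl1 face away from each other and are 105 bp apart, and the sequence between them and the 30 bases at the summit are shown because the strongest peak of the set lies on them. Both read toward Chro, and capitals mark the reverse complement of the BEAF-32 word CGATA, which covers the summit base. The first is chr3L:22878985-22879088 and the second chr3L:22878880-22878909, both minus strand:
Ssl1 to Chro: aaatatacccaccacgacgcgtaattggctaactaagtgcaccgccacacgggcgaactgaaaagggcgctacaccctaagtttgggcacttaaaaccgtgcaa
Chro summit: gttagtttaaagcTATCGacaggcaataca

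Cp190 encodes a BTB-domain zinc-finger protein that most fly insulator complexes contain, and its promoter held the second strongest peak among the 10 genes. The peak (chr3R:15275117-15275516) had a pooled signal of 201, rank 283. Its signal was 114 in replicate 2, rank 229, and 95.2 in replicate 3, rank 329, with summits 33 bp apart. The summit was 76 bp upstream of Cp190 and 205 bp from the TSS of CG4338, a divergent neighbour whose TSS is 281 bp from that of Cp190. A weaker candidate (signal 62.2, rank 3095) had its summit 3 bp from the start of CG4338. The word TATCGATA, which both DREF and BEAF-32 recognise, spans the start site of Cp190 with a further CGATA 11 bp upstream. Of the 6 IDR peaks, only this one had TATCGATA within 100 bp of its summit. These 30 bases (chr3R:15275227-15275256, minus strand) read toward Cp190, with both words in capitals:
Cp190 start: TATCGcatggcTATCGATAgctgccgagcg

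At mod(mdg4) the peak lay far inside the gene and not at its promoter. The gene encodes BTB-domain proteins, one of which acts in the gypsy insulator, and makes many isoforms by trans-splicing a shared 5′ part to alternative 3′ exons encoded on both strands. The peak (chr3R:21365318-21365717) had a pooled signal of 185, rank 350. Its signal was 80.9 in replicate 2, rank 526, and 89.5 in replicate 3, rank 378. Among the 9 regions found in both replicates, it was the only one with a higher deposited signal in replicate 3, by 0.14 on the log2 scale. The other 8 had a lower signal there, as did 55.6% of all IDR peaks matched in both replicates. By rank within each list, CTCF (2513 in replicate 2 and 2071 in replicate 3), M1BP (2914 and 2532) and Dref (800 and 730) also stood higher in replicate 3. The summit was 11883 bp from the TSS of mod(mdg4) but 30 bp from the TSS of pre-mod(mdg4)-E and 91 bp from that of pre-mod(mdg4)-AD on the opposite strand. The pre-mod(mdg4) genes are annotated for precursors of the 3′ exons. The next strongest candidate in the gene body (signal 63.5, rank 2981) had its summit 6 bp from another such TSS, that of pre-mod(mdg4)-AA.

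The promoter of mod(mdg4) itself had only a weak candidate. Its pooled signal was 30.7, rank 12743, with the summit 40 bp downstream of the TSS. In replicate 2 a candidate with a signal of 31.1, rank 4061, had its summit 2 bp from the TSS, and replicate 3 had none within 500 bp. The locus held 12 pooled candidates in all, and those upstream of the gene lay nearest to tin, which encodes a homeodomain protein of the heart, with signals of 50.5 and 32.1. The first sequence below fills the space between the divergent start sites of pre-mod(mdg4)-E and pre-mod(mdg4)-AD under the peak. It holds neither TATCGATA nor CGATA. The second is the stretch just upstream of the TSS of mod(mdg4), with TATCGATA in capitals, and shows the word where the signal was weak. A separate CGATA in that stretch is left in lower case. Both are on the minus strand, that of mod(mdg4), at chr3R:21365489-21365608 and chr3R:21377402-21377481:
mod(mdg4) peak: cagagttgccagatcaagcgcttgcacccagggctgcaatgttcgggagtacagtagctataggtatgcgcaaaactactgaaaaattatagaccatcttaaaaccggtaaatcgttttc
mod(mdg4) start: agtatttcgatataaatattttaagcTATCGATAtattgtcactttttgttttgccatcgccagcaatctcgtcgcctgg

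Dref, whose product activates genes of DNA replication and growth, had a peak in a very short promoter shared with a ribosomal protein gene. The peak (chr2L:9967065-9967464) had a pooled signal of 130.5, rank 771. The replicates gave 66.7, rank 800, and 66.2, rank 730, the closest match in signal of the 9 regions found in both. The summit lay 36 bp upstream of Dref and 48 bp from the TSS of RpL13 on the other strand, so it belongs to both genes. The stretch between the 2 start sites is shown because the summit lies in it. It is chr2L:9967230-9967312 on the minus strand, reading toward Dref, and capitals mark the reverse complement of CGATA, 13 bp from the start of Dref; TATCGATA was not found within 100 bp of the summit:
RpL13 to Dref: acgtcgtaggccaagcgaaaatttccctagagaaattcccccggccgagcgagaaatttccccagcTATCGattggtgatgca

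M1BP, which encodes the protein that binds core promoter motif 1, missed the IDR list narrowly. Its strongest candidate (chr3R:8731792-8732191) had a pooled signal of 71.6, rank 2401, where the weakest IDR peak had 72.5. In replicate 2 the signal was 36.4, rank 2914, and in replicate 3 it was 34.1, rank 2532, with summits 6 bp apart. That summit lay 294 bp upstream of M1BP and 99 bp from the TSS of CG8202, its divergent neighbour. The other candidate, with a signal of 58.6, rank 3461, was 13 bp from the TSS of M1BP. The word GGTCACACT of motif 1 was not found within 100 bp of either summit. The stretch around the stronger summit is shown as a member just below the threshold, on the minus strand at chr3R:8731952-8732032, and its middle base is the summit:
M1BP summit: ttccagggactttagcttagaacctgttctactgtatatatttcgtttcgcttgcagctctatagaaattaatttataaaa

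CTCF, whose vertebrate homologue is also an insulator protein, was the weakest member inside the IDR list. Its peak (chr3L:7356170-7356569) had a pooled signal of 77.1, rank 2083. In replicate 2 the signal was 38.8, rank 2513, and in replicate 3 it was 38.0, rank 2071. The summits of the replicates were 105 bp apart, the widest gap among the 6 peaks. The pooled summit fell in a coding exon of CTCF, 343 bp downstream of the TSS, which an antisense RNA gene, asRNA:CR45822, also covers. A CTCF core word, searched as AGNNGGCGC, was found within the peak 187 bp from the TSS, outside the exons of CTCF. The first sequence below is centred on the summit, and the second shows the CTCF word, reversed and complemented, in capitals. A CGATA beside that word is left in lower case. Both are on the minus strand, that of CTCF, at chr3L:7356330-7356410 and chr3L:7356508-7356537:
CTCF summit: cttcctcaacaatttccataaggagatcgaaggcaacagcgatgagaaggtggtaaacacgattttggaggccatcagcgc
CTCF word: gaaatcgataaGCGCCCTCTtcgggatccc

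**Figure D3:**
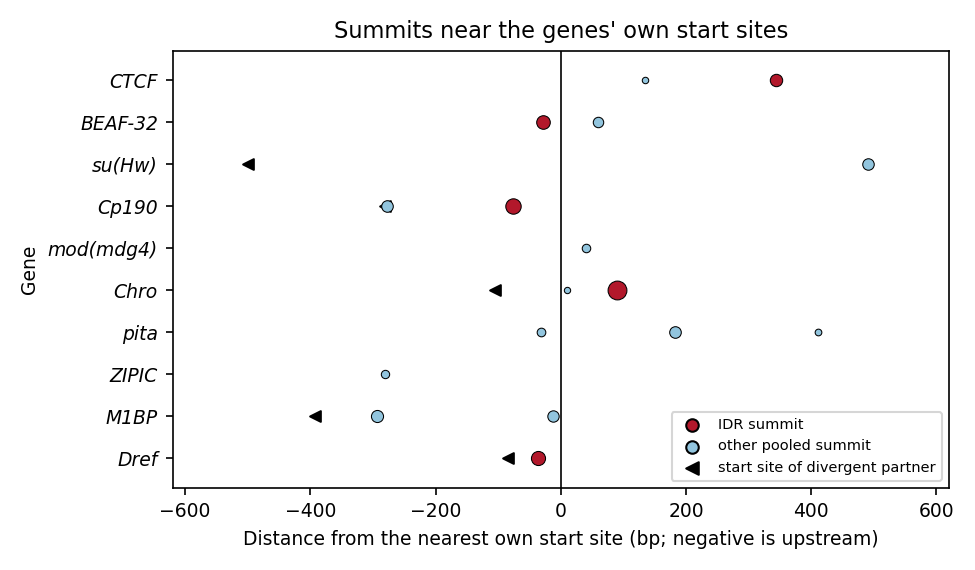
Summits of pooled candidates near an own TSS are placed by their distance from the nearest own TSS (horizontal axis, bp, negative upstream), in the row of their gene; larger circles have a higher signal, red circles are IDR summits, blue circles other candidates, and triangles mark the TSS of a divergent partner. The red circles of Cp190, Dref and BEAF-32 lie 76, 36 and 29 bp upstream, those of Chro and CTCF lie 90 and 343 bp downstream, and mod(mdg4) has none in range.

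BEAF-32 encodes the boundary element-associated factor that binds CGATA clusters. Its peak (chr2R:14770240-14770639) had a pooled signal of 111, rank 1036, and a summit 29 bp upstream of the first of its 3 start sites, on an exon of the antisense RNA gene asRNA:CR42254. The replicates differed in strength here: the signal was 64.8 in replicate 2, rank 856, and 37.2 in replicate 3, rank 2163, although their summits were 2 bp apart. Neither CGATA nor TATCGATA was found within 100 bp of that summit. CGATA did occur at the candidate on an internal start site (signal 46.5, 59 bp downstream) and at the one 49 bp from the TSS of Spred (signal 60.9), 997 bp upstream of BEAF-32.

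The remaining 3 zinc-finger genes had no IDR peak. The strongest candidate of su(Hw), whose product binds the gypsy insulator, had a pooled signal of 60.8, rank 3231, with the summit in its 5′ UTR 490 bp downstream of the TSS. Its signal was 41.0 in replicate 2, rank 2244, and 19.8 in replicate 3, rank 8334. The summit of replicate 3 lay 616 bp from the TSS, in an intron and outside the promoter window of 500 bp. At pita, the strongest candidate had a pooled signal of 62.7, rank 3050, in the 5′ UTR 182 bp downstream of the TSS. Its signal was 45.1 in replicate 2, rank 1806, and 24.9 in replicate 3, rank 4714. Both regions were therefore within the strongest 2334 of replicate 2 and outside those of replicate 3.

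ZIPIC, which encodes a zinc-finger protein named for its interaction with CP190, was the lowest of the 10. Its strongest candidate had a pooled signal of 29.7, rank 13697, with the summit 281 bp upstream of the TSS, in a coding exon of the neighbouring gene ocn. In replicate 2 the signal was 23.6, rank 7274. Replicate 3 listed no candidate anywhere in the locus, which was the only such case among the 10 genes. Of all genes with a candidate, 24.6% had a lower strongest signal.

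**Figure D4:**
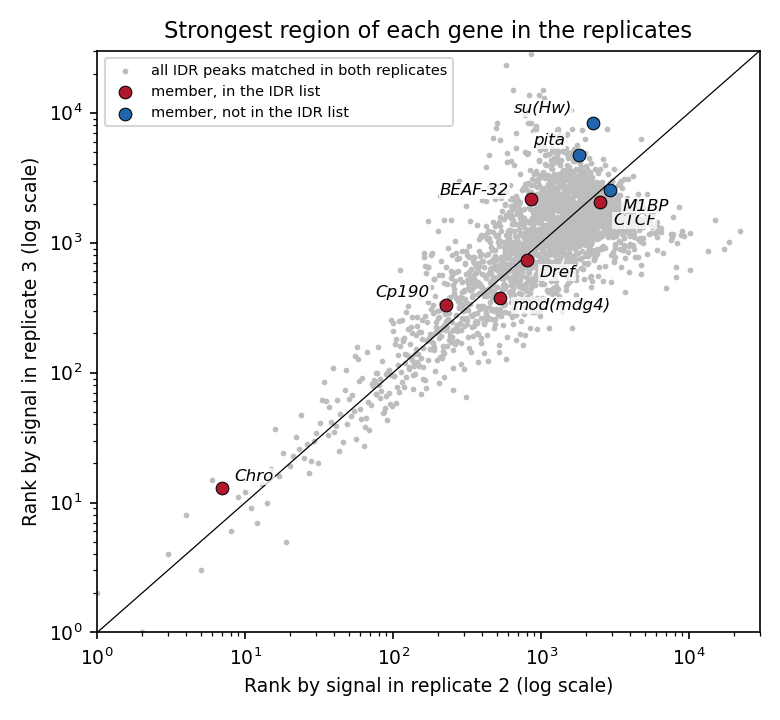
Rank of each member's strongest region by signal in replicate 2 (horizontal log axis) and replicate 3 (vertical log axis), with members in the IDR list in red, other members in blue, and grey points for the 2319 IDR peaks matched in both replicates; the line marks equal ranks and ZIPIC, with no match in replicate 3, is not drawn. Chro lies at ranks 7 and 13, and su(Hw), at ranks 2244 and 8334, lies farthest above the line.

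A region of a replicate was matched when it covered at least 50% of the pooled region, which held in both replicates for 9 of the 10 strongest regions. For the 2319 IDR peaks matched in both, the signal of replicate 3 over that of replicate 2 had, as a log2 ratio, its median at -0.06 with an SD of 0.53 between peaks. At 6 of the 9 regions, those of CTCF, Cp190, mod(mdg4), Chro, M1BP and Dref, the ratio lay within 1 SD of that median, with values from -0.25 to 0.14, and the same held for 73.2% of the matched IDR peaks. At BEAF-32 (-0.80), pita (-0.86) and su(Hw) (-1.05) it lay further off, lower in replicate 3 each time. The SD was 0.73, with a median of -0.22, among pooled candidates of ranks 2335 to 4668, where M1BP, pita and su(Hw) fall. Of these, M1BP and pita lie within 1 SD of that median while su(Hw) does not. With 2 replicates these differences were not tested.

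The count of genes was similar when each replicate was read alone. Among the strongest 2334 candidates of replicate 2 there were regions at 7 of the 10 genes (21.3% over all genes), with su(Hw) and pita added and CTCF lost. Among those of replicate 3 there were regions at 6 (22.2% over all genes), the same 6 as in the IDR list. Chro, Cp190, mod(mdg4), Dref and BEAF-32 were in both sets, and M1BP and ZIPIC in neither.

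A divergent partner, meaning another protein-coding gene on the other strand with its TSS at most 500 bp upstream, was found for 5 of the 10 genes against 27.3% of all protein-coding genes: Dref (84 bp), Chro (105 bp), Cp190 (281 bp), M1BP (393 bp) and su(Hw) (500 bp, with Polr2I). Dref, Chro and Cp190 had an IDR summit at the promoter, and M1BP and su(Hw) did not. M1BP missed the IDR list narrowly (71.6 against 72.5), and shares by width of the gap were not taken over all genes. For all genes the share with an IDR summit at an own promoter was 22.6% with a divergent partner and 7.28% without one. Of the 5 members without a partner, BEAF-32 and CTCF had such a summit.

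Words recognised by products of the members, and that of the GAGA factor, encoded by Trl, were searched on both strands within 100 bp of the summits. CGATA was found at 3 of the 6 IDR peaks, at Chro, Cp190 and Dref, against 29.2% of all 2334 IDR peaks and 22.9% of the 26517 other candidates that did not overlap one. The longer TATCGATA, which holds CGATA on either strand, was found at 1 of the 6, Cp190, against 3.77% of IDR peaks and 1.61% of other candidates. The CTCF core AGNNGGCGC (4.07% of IDR peaks and 3.10% of other candidates), the motif 1 word GGTCACACT (1.50% and 0.849%), the su(Hw) core TGCATAC (3.86% and 2.59%) and the GAGA factor word GAGAGAG (4.84% and 3.83%) were found at none of the 6. At pita, TATCGATA began 30 bp from the summit of a weaker promoter candidate (signal 31.6) and 9 bp from that of a candidate next to wmd (signal 49.6). The GC content of the same windows ran from 31.3% at BEAF-32 and 31.8% at Cp190, through 38.3% at Chro, 38.8% at mod(mdg4) and 42.3% at Dref, to 51.7% at CTCF, where the median was 36.8% over all IDR peaks and 43.8% over other candidates. A match describes letters only and does not show a bound protein.

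The same words were looked up in the members' own promoters, from 250 bp upstream to 50 bp downstream of each TSS, without regard to peaks. TATCGATA was in promoters of 5 of the 10 genes, CTCF, BEAF-32, Cp190, mod(mdg4) and pita, against 10.2% of protein-coding genes. CGATA was in 8 of 10 (53.1% of all genes), missing only at su(Hw) and M1BP. The motif 1 word was in 2, su(Hw) and ZIPIC (6.77% of all genes), and GAGAGAG in 1, pita (9.08%), while the CTCF (3.86%) and su(Hw) (4.23%) words were in none. Of the 5 genes with TATCGATA in a promoter, CTCF, BEAF-32 and Cp190 had an IDR summit at an own promoter, and mod(mdg4) and pita did not. Among all genes with the word 17.1% had such a summit, and among those without it 10.8%.

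A list of 29 further genes of insulators, boundary factors, cohesin and condensin was read in the same way, and 11 of them (37.9%, against 22.2% of all protein-coding genes) held an IDR peak. Of the 10 that encode DNA-binding proteins 3 had one, of the 12 that encode cofactors 5, and of the 7 of cohesin and condensin 3. The share of 22.2% was not matched for gene length, and a longer locus has more room for a summit. The long genes Trl, JIL-1 and shep held 5, 4 and 4 IDR peaks. At 9 of the 11 an IDR summit lay at an own promoter, as it did at 1602 of the 3096 protein-coding genes with an IDR peak. The strongest peaks lay at Trl, the GAGA factor gene (signal 471, in an intron), at JIL-1, a histone H3 kinase gene (243, in an intron 7080 bp from its TSS), at pds5, a cohesin regulator gene (238, 185 bp from its TSS but 93 bp from that of Mppe), and at Map60, whose product binds CP190 (161, 1922 bp from its TSS and 105 bp from that of CG1827). The others were shep, pzg, which encodes the Z4 partner of Chromator, row, fs(1)h, SA, Cap-H2 and woc. The strongest fs(1)h peak ranked 8165 in replicate 2 and 543 in replicate 3, and the woc peak ranked 1375 and 5046. At all other genes of the 11, the strongest peak was within the strongest 2334 candidates of both replicates. The median strongest signal of the 28 genes with a candidate was 60.0, between that of the 10 members and that of all genes.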

How the data were processed

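The labels give 1 group of 2 biological replicates. Per the deposited notes, each replicate's list was made from its own alignments with 1 control file, the pooled list from both replicates, and the IDR list from all 3, on dm6. The sources used here name no aligner, peak caller, IDR threshold or read depth. Signal and summit were used as deposited by the authors; the deposited −log10 q-value was read but used in no result. Lists on dm3 were not used here. Any likeness the shared control gives the replicates was not separated.

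Genes came from Ensembl release 115 and sequence from Release 6 (dm6), and all regions lay within its chromosomes. Summits were assigned with Python 3.11.15, numpy 2.4.6 and pandas 2.3.3, and the assignment was tested on simulated data. Regions were ranked by signal within each list. The members, the list of 29 genes and the words were chosen with earlier results of these data known, so shares are described with no test. The text names all 10 members, neighbours that share a summit, and listed genes with an IDR peak. SA was matched as SA1. Alternatives were other gene windows, promoter widths and word windows, a stricter list, the nearest TSS and each replicate alone; the treatment of the pre-mod(mdg4) genes was added after seeing the data.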

Additional observations from a re-analysis of the deposited data

How the results depend on the processing

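The count of members with an IDR peak was 6. With either replicate left out, here and below, the strongest 2334 candidates of the other replicate stood in for IDR peaks. The count of members was then 7 in replicate 2 alone (21.3% of all genes) and 6 in replicate 3 alone (22.2%). It was 5 with IDR peaks above their median signal (12.6% of all genes), 6 within 5 kb (32.0%) and 5 by the nearest TSS (13.2%), without mod(mdg4). With the pre-mod(mdg4) genes left out it was 6 (22.1%). Within the gene body alone it fell to 3, CTCF, mod(mdg4) and Chro (7.59% of all genes), since that window drops summits upstream of a TSS, and the median of the strongest signal moved from 94.3 to 61.7. Members with an IDR summit at an own promoter numbered 5. They ran from 5 to 6 with either replicate left out (11.6% of all genes in replicate 3 alone and 11.1% in replicate 2 alone), and were 4 within 200 bp (8.06%), 5 within 1000 bp (13.5%) and 4 among the stronger peaks (6.29%); they were 6 with the start sites of the pre-mod(mdg4) genes counted for mod(mdg4). Word counts over the 6 peaks followed the window: within 200 bp the CTCF word was at 1 (6.34% of all IDR peaks), TATCGATA at 2 (6.04%) and CGATA at 5 (46.9%), and within 50 bp TATCGATA was at 0 (2.01%). Of the 29 further genes, 7 had a peak among the stronger peaks (12.6% of all genes) and 7 by the nearest TSS (13.2%). With either replicate left out, the count ran from 9 (22.2% of all genes, replicate 3 alone) to 14 (21.3%, replicate 2 alone). An overlap of 1 bp left 9 regions matched in both replicates. The read depth is unknown, which leaves the precision of weak candidates such as that of ZIPIC unknown too. No paired analysis was possible because there is only 1 group.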
